A study of Mus musculus with 4 samples.

Results

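The 10 genes described here act in the decay of cytoplasmic mRNA: Ddx6, Dcp2, Edc4, Lsm14a, Cnot1, Cnot6, Cnot7, Pan3, Tob1 and Xrn1. They were taken by their symbols from tables of N6-methyladenosine (m6A) sites, in which 20001 genes were named. Of the 1076788 positions listed in any of the 4 libraries, 1901 lay under these 10 genes. The genes share a role in mRNA decay and were selected on earlier results of the same contrast, namely the levels and the listing of their positions in untreated and treated libraries. The comparisons between untreated and treated libraries therefore describe them and support nothing about that selection.

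Most cytoplasmic mRNAs are degraded after their poly(A) tail has been shortened. The PAN2-PAN3 and CCR4-NOT complexes remove the tail, the decapping enzyme DCP2 and its partners then remove the cap, and the exonuclease XRN1 digests the uncapped body from its 5′ end. m6A is itself tied to this route, because the cytoplasmic reader YTHDF2 recruits CCR4-NOT to methylated mRNAs. The transcripts of the decay machinery can carry m6A too, and it is these transcripts that were examined.

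Polyadenylated RNA of mouse retinal organoids was profiled with GLORI, a chemical method in which unmethylated adenosine becomes inosine, which sequences as G, whereas m6A resists and sequences as A. Levels below are the percentage of A in the sum of A and G reads at a position. All organoids came from a retinal reporter line, Rx:GFP, whose endogenous Mettl3 carries FKBP12F36V-HA at its C-terminus, and all were differentiated in medium with AGN. METTL3 is the catalytic subunit of the mRNA m6A methyltransferase, and dTAG13 is a small molecule that directs proteins with the FKBP12F36V tag to degradation. One group of 2 libraries received no dTAG13 (0 h), and the other group of 2 libraries received 125 nM dTAG13 for 8 h. The day was 6 for all 4 libraries, and both groups carried the tagged allele. The genotype text names Mettl3, Mettl4, Mettl5 and Mettl6 in turn for the 4 samples, while the growth protocol names Mettl3 for each of them. Whether the line is 1 clone, and whether the samples of a group came from separate cultures, is not given in the sources used here, so p-values measure only the spread between these samples.

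A position was listed only where a library had at least 15 reads, at least 5 A reads and a level of at least 10%. The libraries listed 335607 and 350462 positions without dTAG13 and 220034 and 263069 with it, over median depths of 75 to 91 reads. A position that is not listed therefore has no value, and its level may have been low or its depth short. All 9 retinal progenitor markers examined were listed in all 4 libraries, with a summed gene coverage between 2610 and 4257. So were all 4 pluripotency markers (summed coverage 615 to 883), while the lists of other lineages were mixed. Of 5 mesoderm and endoderm markers, Sox17 was listed in 4 libraries, Gata4 in 2, Foxa2 in 1, and T and Mixl1 in none (summed coverage 26.0 to 158). Of 4 neural crest and non-neural markers, Krt18 was listed in 4 libraries, Foxd3 in 3, Sox10 in 1 and Krt8 in none (summed coverage 75.6 to 131). The part of such cells in the results was not tested. Positions are given as the tables list them. The submitters' processing notes name mm10, but the tables' contig names are those of GRCm39, and only 107 of the 1901 positions fell inside the RefSeq interval of their gene on GRCm38, so exons, introns and UTRs were not assigned.

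Ddx6 encodes an RNA helicase that joins the deadenylation complex to decapping and represses translation. The gene had 278 listed positions on the plus strand of chromosome 9, of which 2 were listed in all 4 libraries. At chr9:44548145 the level was 76.8% of 423 reads and 80.2% of 298 reads in the untreated libraries, and 12.3% of 310 reads and 10.1% of 345 reads in the dTAG13 libraries. Both treated libraries lay far below both untreated ones, and the treated values stood just above the 10% listing limit. The mean went from 78.5% ± 2.38 (SD, n = 2) to 11.2% ± 1.49 (SD, n = 2), a difference of -67.3 percentage points. In a quasi-binomial model of A and G reads, fitted at the 2321 positions that every library listed over at least 20 reads, the adjusted p of this position was 0.0070. It was 1 of the 4 positions of the decay genes that could be tested and the only one past 0.05. Over all 2321 positions 2.28% passed, 2.2% with a lower level after dTAG13. The 2321 include positions outside named genes, and 1189 of them lay in named genes outside the 10. The share that passed among these 1189 alone is not given here. Positions that fell below the 10% limit in a treated library are not among the 2321. Without any 1 of the libraries the difference stayed between -69.0 and -65.6 points and its adjusted p was 0.140 to 0.162. In each of these 4 fits of 3 libraries 0% of all positions passed, so they say nothing about the stability of this call.

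The next Ddx6 position, further downstream, did not follow this pattern. At chr9:44548389 the untreated libraries had levels of 99.7% and 99.5% and the treated ones 35.6% and 98.5%, over at least 206 reads in each library. One treated library stood far below the untreated pair while the other stayed close to it, and the treated mean was 67.1% ± 44.5 (SD, n = 2). The difference of -32.5 points did not pass the same model (adjusted p = 0.703), and it was -1.06 points without the first dTAG13 library and -64.0 points without the second. With the reads of both positions summed, Ddx6 stood at 86.5% and 88.1% without dTAG13 and at 22.3% and 49.2% with it. The adjusted p of the summed level was 0.0650, where 4.53% of the 1016 genes tested passed.

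**Figure D1:**
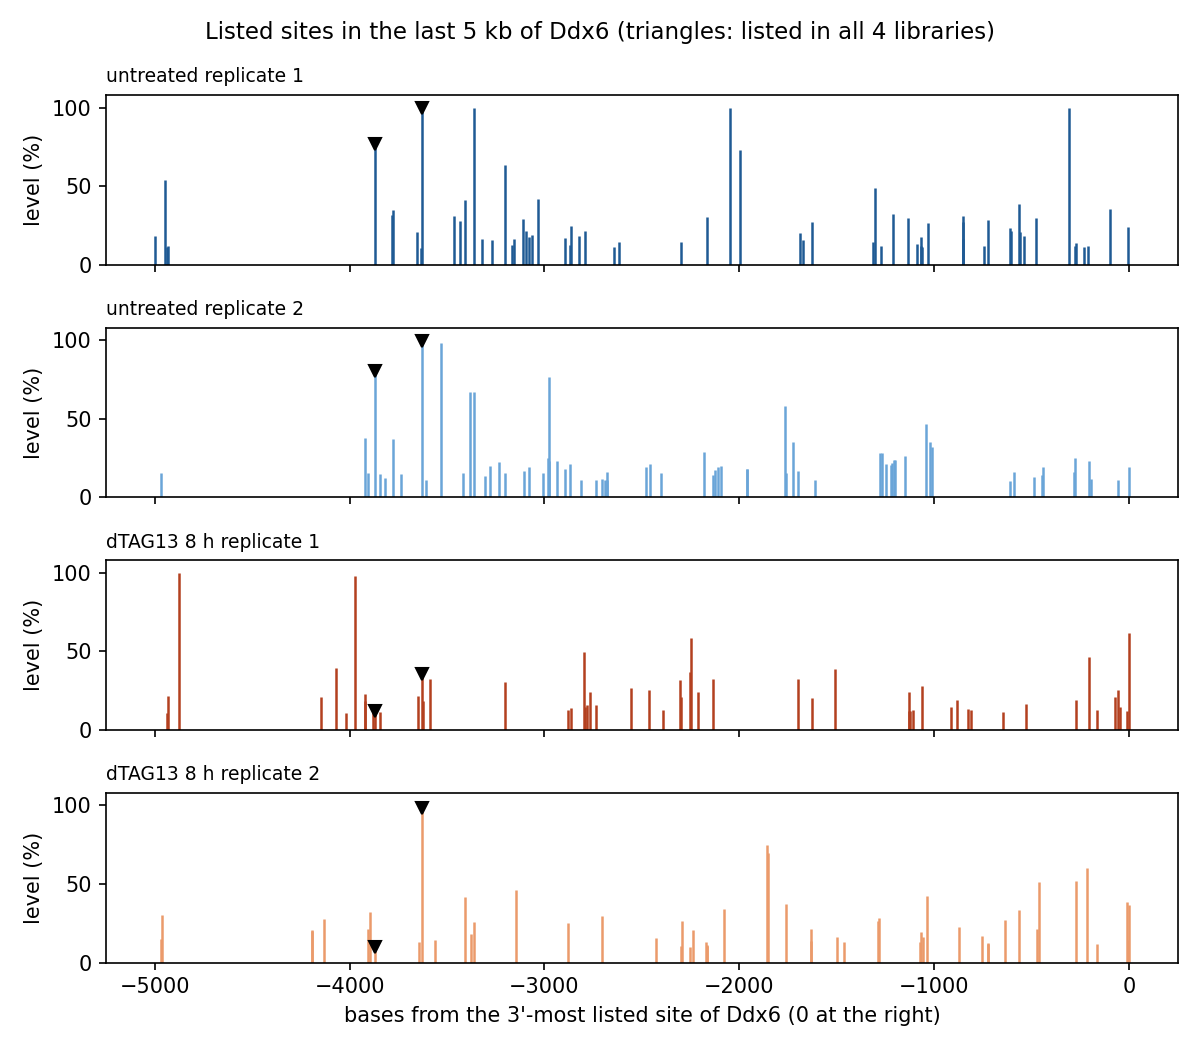
Methylation level (y axis, % A of A and G reads) of the Ddx6 positions within 5 kb of the 3′-most listed one, with 1 panel per library. The x axis gives the distance in bases from that position, and 212 of the 278 listed positions fall in this window. Triangles mark the positions listed in all 4 libraries: the left one stands at 76.8% and 80.2% without dTAG13 and at 12.3% and 10.1% with it, and most other lines appear in 1 panel only.

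Other Ddx6 positions were seen in fewer libraries. At chr9:44542681 the level was 78.3% of 23 reads and 96.3% of 27 reads in the untreated libraries, and at chr9:44548657 it was 100% of 63 reads and 66.8% of 223 reads. Neither was listed with dTAG13. The second dTAG13 library did list 29.9% of 167 reads 3 bases from the former and 25.6% of 273 reads 2 bases from the latter. The first dTAG13 library listed no position within 30 bases of either. The 3′-most position, chr9:44552017, showed the reverse order: it was unlisted in the first untreated library, and its level was 19.6% of 107 reads in the second and 61.4% of 57 and 36.6% of 112 reads in the dTAG13 libraries. At 5 bases from it, the first untreated library listed 24.1% of 170 reads and the second dTAG13 library 14.5% of 220. The second dTAG13 library also listed 38.7% of 222 reads 7 bases away, and the first 12.1% of 149 reads 8 bases away. Of the 7 Ddx6 positions listed in both untreated libraries, 5 were in neither dTAG13 library. In all other genes, 20.0% of such positions were listed in a dTAG13 library. Of the 7 Ddx6 positions listed in both dTAG13 libraries, 4 were in neither untreated library, against 68.8% of such positions in all other genes.

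Cnot6 encodes a catalytic deadenylase subunit of CCR4-NOT and held the other positions seen in all 4 libraries. They lie 6 bases apart on the minus strand of chromosome 11, where the same reads can span both, so they are not independent of each other. At chr11:49564084 the level was 30.0% of 683 reads and 35.7% of 1010 reads untreated, and 37.5% of 304 and 46.0% of 461 reads with dTAG13. At chr11:49564090 it was 18.1% of 724 and 21.4% of 1093 reads untreated, and 29.5% of 339 and 35.2% of 566 reads with dTAG13. Both positions were higher in each treated library than in each untreated one, by 8.86 and 12.6 points on the means. Leaving out 1 library moved the first of these differences to between 4.62 points (without the second dTAG13 library) and 13.1 points (without the first). Neither position passed the quasi-binomial model (adjusted p = 0.612 and 0.187). Of all 2321 tested positions, in and outside named genes, 17.8% had both treated libraries above both untreated ones, against 19.4% with both below. The summed level of Cnot6 was 23.9% and 28.3% untreated and 33.3% and 40.0% treated (adjusted p = 0.234).

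A further 9 positions were listed in 3 of the libraries, and they ran in different directions. Pan3 encodes the regulatory subunit of the PAN2-PAN3 deadenylase. At chr5:147484177 its level was 99.1% of 114 reads in the second untreated library (95% Wilson interval 95.2 to 99.8%), and 24.2% of 165 and 13.9% of 137 reads with dTAG13; the first untreated library did not list it. Dcp2 encodes the decapping enzyme itself. At chr18:44554564 its level was 41.3% of 572 reads in the second untreated library, and 20.8% of 53 and 13.6% of 1402 reads with dTAG13. At chr18:44555511 the level was 32.2% of 239 and 12.4% of 178 reads untreated and 31.3% of 195 reads in the first dTAG13 library, so the treated value lay between the untreated ones.

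Cnot1 is the scaffold on which the CCR4-NOT complex assembles, and it had 3 such positions. At chr8:96501262 the level was 50.3% in the second untreated library and 37.7% and 18.0% with dTAG13. At chr8:96473636 the order was opposite, with 17.8% and 18.8% untreated and 63.5% in the second dTAG13 library, there over 52 reads. At chr8:96500076 the 3 levels lay between 10.1% and 13.3%, close to the listing limit in both groups. For Lsm14a, a partner of DDX6 in translational repression, chr7:34044489 stood at 18.0% of 451 and 41.5% of 347 reads untreated and at 12.7% of 488 reads in the second dTAG13 library. The 3′-most Cnot6 position, chr11:49562356, ranged from 11.3% of 150 and 49.4% of 85 reads untreated to 100% of 37 reads in the second dTAG13 library.

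**Figure D2:**
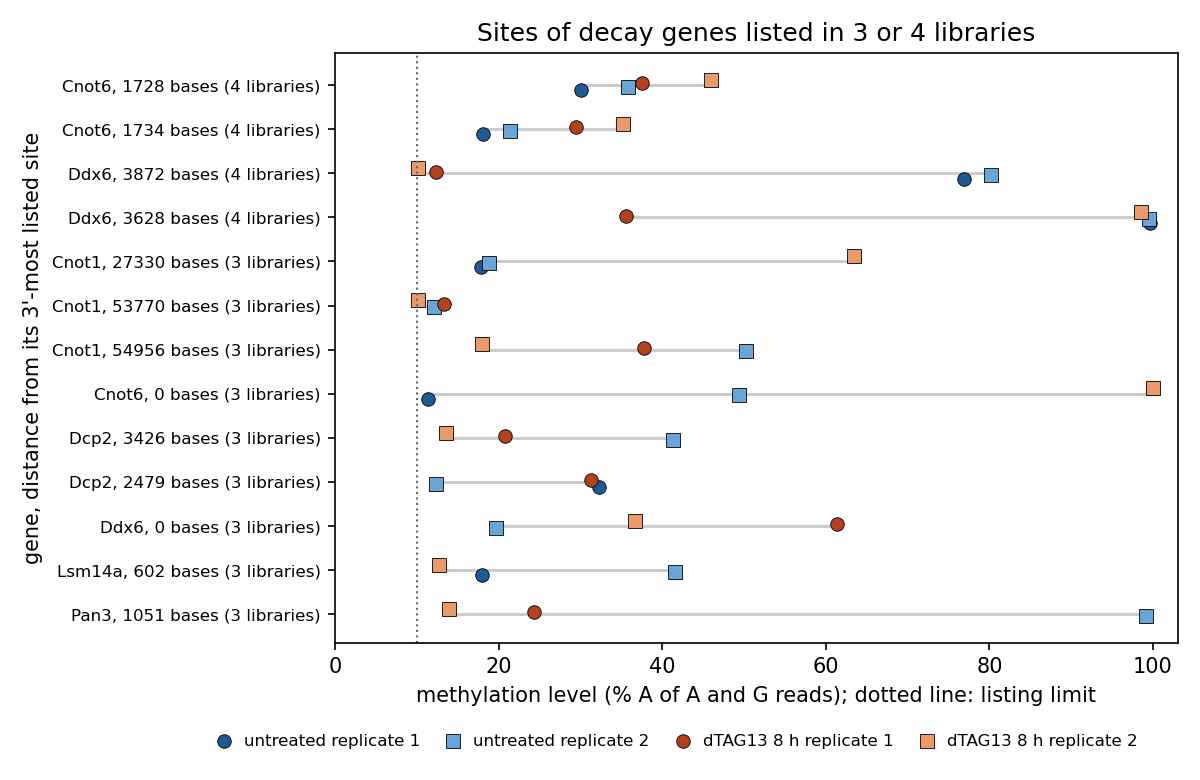
Methylation level (x axis, % A of A and G reads) in each library at the positions of the decay genes listed in 3 or 4 libraries; the y axis names the gene and the distance of the position from the gene's 3′-most listed position. Points are single libraries and grey lines span them; the dotted line is the 10% listing limit, and at Ddx6, 3872 bases, the untreated pair (76.8% and 80.2%) stands apart from the dTAG13 pair (12.3% and 10.1%).

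Agreement between libraries on which positions were listed was low in both groups, in the decay genes as in all other genes. Of the 1901 positions, 1721 (90.5%) were listed in 1 library only, 167 in 2, 9 in 3 and 4 in all; in all other genes 91.4% were in 1 library only. The untreated libraries shared 55 positions, which was 9.11% of the first and 8.72% of the second, against 9.62% and 9.22% in all other genes. The dTAG13 libraries shared 28, or 6.41% and 6.57%, and the 4 mixed pairs shared between 30 and 40. Where replicates listed the same position, their levels differed by a median of 10.1 points in the untreated pair and 13.8 points in the treated pair, with largest gaps of 59.6 and 66.3 points. The medians over all other genes were 9.67 and 8.27 points. A level seen in 1 library is therefore a weak guide to the level in its replicate.

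Of the 55 positions shared by the untreated libraries, 8 were listed in a dTAG13 library, or 14.5% (95% Wilson interval 7.56 to 26.2%). In all other genes the share was 20.0% of 25031 positions, inside that interval. Counting a dTAG13 position within 3 bases as a match, the shares were 23.6% and 28.6%. Among the 16 positions with a mean untreated level of at least 40%, 2 were listed with dTAG13, both in Ddx6, and 14 were not; these 12.5% compare with 14.2% of 9134 such positions in all other genes. The reverse also occurred: of the 28 positions shared by the dTAG13 libraries, 19 (67.9%) were listed in no untreated library, where the share in all other genes was 68.8% of 11128. Because the treated libraries listed fewer positions in all, a lower share is not by itself a measure of lost methylation.

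The positions of high untreated level that no dTAG13 library listed lay in 7 further genes as well as Ddx6. Tob1 encodes an adaptor that brings CCR4-NOT to mRNAs, and at chr11:94105508 its level was 92.0% of 50 and 100% of 16 reads. Its position chr11:94105099 was less even, with 26.9% of 52 and 83.3% of 24 reads. For Cnot7, a catalytic deadenylase subunit, the level was 37.4% of 705 and 43.1% of 557 reads at chr8:40945797, the most deeply read of these positions, and 64.8% of 145 and 43.5% of 322 reads at chr8:40960573. At the first of these Cnot7 positions the replicates were close to each other.

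In Dcp2 the levels were 56.4% of 78 and 85.7% of 49 reads at chr18:44556104, and 45.2% of 73 and 100% of 24 reads at chr18:44551967. In Cnot6, chr11:49562484 stood at 30.3% of 198 and 68.3% of 684 reads and chr11:49603391 at 89.5% of 19 and 29.9% of 67 reads. In Cnot1, chr8:96496492 stood at 81.0% of 21 and 52.0% of 50 reads and chr8:96533971 at 11.8% of 93 and 71.4% of 77 reads. Several of these pairs were far apart, and at each of these positions except chr11:49562484 the shallower library gave the higher level.

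Pan3 and Xrn1 had 1 such position each. Pan3 chr5:147482854 stood at 42.7% of 96 and 38.9% of 54 reads, and Xrn1 chr9:95939541, in the gene of the 5′ to 3′ exonuclease, at 63.6% of 99 and 21.6% of 111 reads. Edc4, which encodes a scaffold that activates decapping, had none. Its best supported position, chr8:106615943, stood at 17.0% of 493 and 28.9% of 567 reads untreated and was not listed with dTAG13. In the other direction, Xrn1 chr9:95855546 was listed only with dTAG13, at 57.0% of 135 and 86.7% of 60 reads. Cnot7 chr8:40946484 likewise stood at 43.2% of 162 and 38.1% of 118 reads, in the treated libraries alone. Near it, the second untreated library listed 54.5% of 110 reads 3 bases away, and the first 48.1% of 81 reads 6 bases away. Lower untreated levels also stood nearby, such as 11.8% of 110 reads 4 bases away in the second library. Cnot1 chr8:96497304 stood at 100% of 33 and 33.7% of 172 reads, again listed in the treated libraries alone.

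The 10 genes had fewer listed positions after dTAG13. The untreated libraries listed 604 and 631 and the treated ones 437 and 426, so the groups did not overlap. The means were 617.5 ± 19.1 and 431.5 ± 7.78 (SD, n = 2 each), a ratio of 0.699; an exact permutation test of 2 against 2 cannot give a p below 0.333. All other genes together had a ratio of 0.714. When each library was divided by its own total of listed positions, the ratio of the decay genes was 1.001, so their number was lower by about as much as that of the whole library.

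The difference was larger among positions of low level, in the decay genes and in all other genes. Between 10% and 40%, the decay genes had 430 and 487 positions untreated and 301 and 271 treated, a ratio of 0.624, where all other genes had 0.683. At 40% or more they had 174 and 144 untreated and 136 and 155 treated, and these groups overlapped; the ratio was 0.915, where all other genes had 0.771. At 90% or more they had 44 and 38 untreated and 49 and 53 treated, a ratio of 1.24, where all other genes had 0.849. A wider list of other mRNA decay genes, described below, had 0.867 there. This difference was not tested. At 40% or more with at least 100 reads, the 10 genes had 44 and 40 untreated and 30 and 51 treated. These groups overlapped, with a ratio of 0.964, where all other genes had 0.816. The percentage of positions at 40% or more went from 28.8% and 22.8% to 31.1% and 36.4% in the decay genes, and from 36.6% and 34.9% to 38.3% and 38.8% in all other genes. Cnot1 had 22 and 23 positions at 40% or more untreated and 25 and 37 with dTAG13.

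Gene by gene, the listed number was lower in both dTAG13 libraries than in both untreated ones for 8 of the 10 genes. Of the 12449 genes tested, 46.4% were so ordered. The number was higher in both for 0 of the 10, against 4.51% of all genes. These shares were not matched for listed positions per gene. The first untreated library listed 604 positions in these 10 genes and 260741 in all 16473 genes it named. Edc4 had 36 and 39 positions untreated and 20 and 17 treated, the lowest ratio of the 10 (0.493). Xrn1 had 62 and 52 against 27 and 36, Pan3 had 35 and 43 against 23 and 23, and Tob1 had 22 and 42 against 19 and 13. Among the genes with many positions, Dcp2 went from 92 and 94 to 69 and 62, Cnot1 from 101 and 112 to 70 and 84, Ddx6 from 92 and 86 to 70 and 66 and Cnot6 from 78 and 73 to 53 and 62. The groups of Cnot7 (49 and 54 against 50 and 33) and Lsm14a (37 and 36 against 36 and 30) touched or overlapped.

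None of the 10 passed edgeR's quasi-likelihood test with Benjamini-Hochberg adjustment over all genes (smallest adjusted p = 0.179). DESeq2 passed 0 of the 10 and 0 of all 12449 genes. Unadjusted in edgeR, 6 of the 10 were under 0.05, as were 2573 of all 12449 genes, of which 0% passed the adjustment. These counts were not matched for listed positions per gene. The median ratio was 0.714 over the decay genes and 0.700 over all genes tested. Scaled to the library totals, the estimates of Ddx6, Cnot1, Cnot6, Cnot7 and Lsm14a turned from lower to higher with dTAG13, by 0.02 to 0.34 on the log2 scale.

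**Figure D3:**
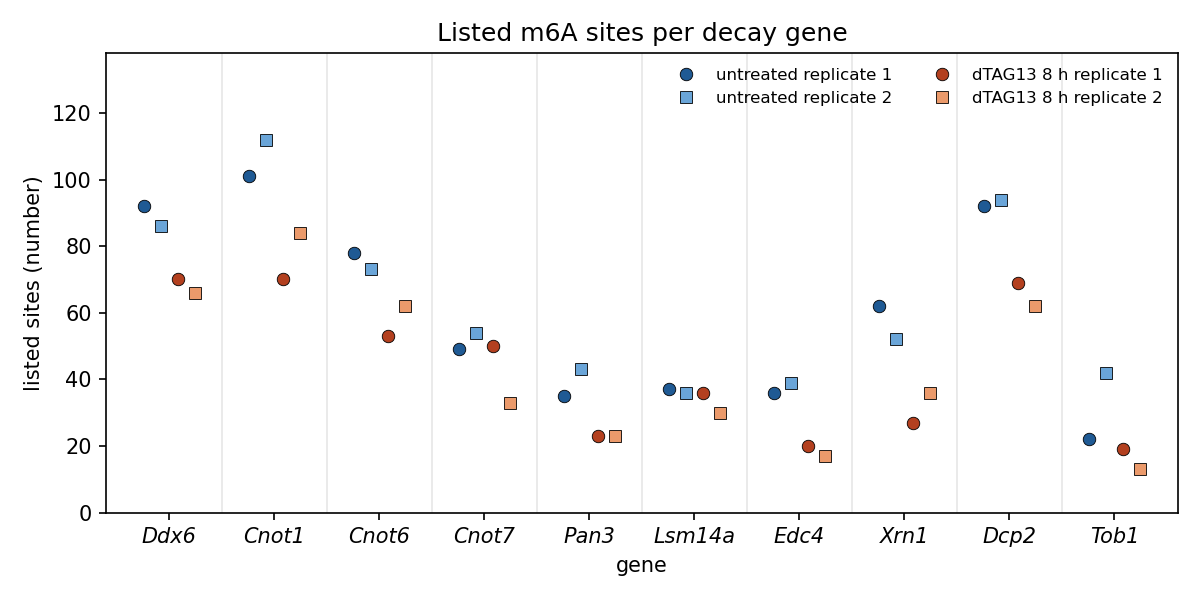
Number of listed positions (y axis) of each decay gene (x axis) in the 4 libraries; each point is 1 library. In 8 of the genes both dTAG13 points lie below both untreated points, as for Edc4 (36 and 39 against 20 and 17); Cnot7 and Lsm14a are the exceptions.

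The tables also give a conversion rate for each gene, and what it leaves is the unconverted share, the percentage of a gene's adenosine still read as A. This share does not depend on the listing limits, but it holds incomplete chemical conversion as well as m6A. It was lower in both dTAG13 libraries than in both untreated ones for 7 of the 10 genes, where 40.9% of 12520 genes were so ordered, and higher in both for 0 of the 10, against 6.05%. For Ddx6 it was 3.95% and 3.66% untreated and 3.46% and 2.79% treated. For Dcp2 it was 3.38% and 2.82% against 2.36% and 2.09%, and for Edc4 4.20% and 3.91% against 3.35% and 3.22%. These decapping genes thus had separate groups, and so had Lsm14a, with 2.85% and 2.96% against 2.46% and 2.17%.

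Among the deadenylation genes, Tob1 had the largest difference of means, with 4.87% and 5.48% untreated and 2.19% and 4.29% treated, and also the widest treated spread. Pan3 went from 4.29% and 4.25% to 3.61% and 2.89%, and Cnot7 from 2.45% and 2.92% to 2.40% and 1.76%. Cnot1 did not share this order: it stood at 3.09% and 3.44% untreated and 3.10% and 3.67% treated. In Cnot6, 1 untreated library stood apart (4.67% and 2.84% against 2.82% and 3.04%). Xrn1 overlapped as well, with 3.03% and 2.69% against 2.25% and 2.72%.

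None of the 10 passed limma on the log2 odds of the unconverted share (smallest adjusted p = 0.489 for Tob1). Unadjusted, 0 of the 10 and 1540 of all 12520 genes were under 0.05, and 0% passed the adjustment. The median difference was -0.723 percentage points over the decay genes and -0.666 points over all genes. Relative to the median gene of each library, the estimates of Ddx6, Edc4 and Xrn1 turned to 0.02, 0.01 and 0.11 on the log2 odds scale.

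**Figure D4:**
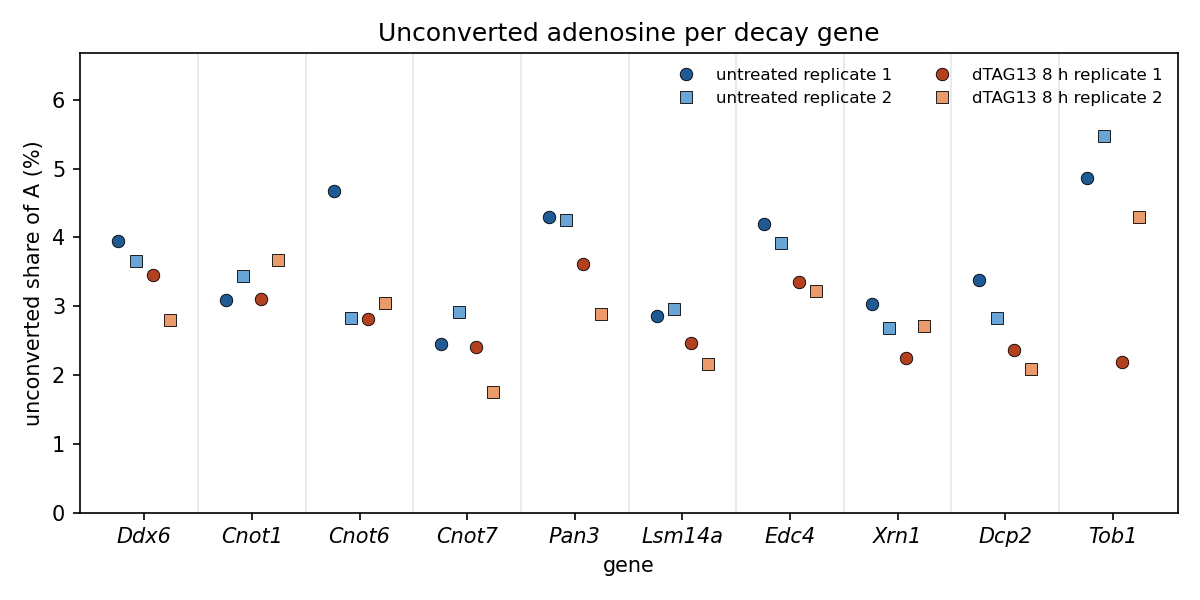
Unconverted share (y axis, % of a gene's adenosine read as A) of each decay gene (x axis) in the 4 libraries; each point is 1 library. In 7 genes both dTAG13 points lie below both untreated points, with the largest difference of means in Tob1 (4.87% and 5.48% against 2.19% and 4.29%), while the points of Cnot1, Cnot6 and Xrn1 overlap.

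The deposited gene coverage, which is not scaled to library depth, was used as the measure of transcript abundance, and it was centred on the median gene of each library before testing. In bulk RNA, fewer cells that express a gene and less RNA per cell cannot be told apart. Ddx6 had a coverage of 246 and 322 untreated and 163 and 227 treated, a change of -0.47 ± 0.22 (SE) on the centred log2 scale with an adjusted p of 0.420 in limma. Cnot1 had 144 and 169 against 104 and 120, a log2 change of -0.40 ± 0.21 (adjusted p = 0.454 in limma). Tob1 had 174 and 189 against 141 and 133, and Cnot6 had 211 and 241 against 137 and 217. After centring, these 4 genes had both treated libraries below both untreated ones, as had 29.2% of all 12520 genes; 0 had both above, against 17% of all genes.

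The coverage of the other 6 genes overlapped between the groups after centring. Xrn1 was the only gene with a fitted change above 0, at 0.12 ± 0.22 on the log2 scale, with 95.0 and 86.2 untreated and 88.5 and 97.6 treated. The estimate for Pan3 was -0.01 ± 0.29. Cnot7 had 282 and 327 against 242 and 231, Lsm14a 316 and 391 against 272 and 314, Dcp2 144 and 179 against 114 and 183, and Edc4 98.6 and 91.0 against 78.2 and 77.8. None of the 10 passed the adjustment in limma and 0 were under 0.05 unadjusted; over all genes 0% passed and 1595 were under 0.05 unadjusted. The median log2 change was -0.24 over the decay genes and -0.07 over all genes.

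**Figure D5:**
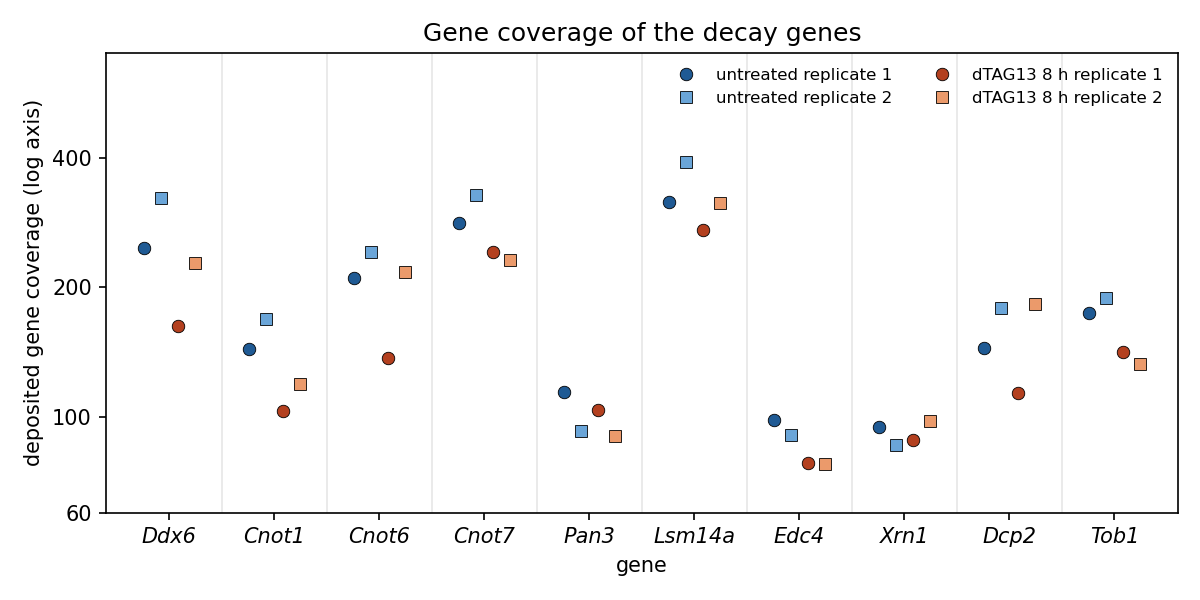
Deposited gene coverage (y axis, log scale, not scaled to library depth) of each decay gene (x axis) in the 4 libraries; each point is 1 library. Ddx6 stands at 246 and 322 without dTAG13 and at 163 and 227 with it, while the groups overlap in Xrn1 and Pan3.

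A wider list of 72 other genes of mRNA decay, covering deadenylation, decapping, the exosome, nonsense-mediated decay and microRNA silencing, served for comparison; 71 were listed, with 5984 positions. Their summed number of listed positions had a ratio of 0.658, against 0.699 for the 10 genes. By gene, 40 of the 68 that were tested had both treated libraries below both untreated ones, where 46.4% of all 12449 genes did. In edgeR with equal library sizes 0 of the 68 passed. Unadjusted, 20 of them were under 0.05 there, as were 2573 of all 12449 genes. DESeq2 passed 0 of the 68 and 0 of all 12449 genes. Unadjusted, 4 of the 68 were under 0.05 in DESeq2, and the number over all genes is not given here. With library totals as sizes, 3 of the 68 passed in edgeR, against 0.458% of all genes, and with TMM factors the same 3, against 0.53%. These were the deadenylation genes Btg2 and Cnot6l and the helicase gene Helz, with log2 changes of -2.01, -1.52 and -1.60 under library totals. Btg2 had 28 and 35 positions untreated and 7 and 4 treated, Cnot6l 35 and 38 against 15 and 3, and Helz 31 and 33 against 5 and 10. Of 67 genes tested for coverage and for the unconverted share with limma, 0 passed either test. Unadjusted, 6 and 5 of them were under 0.05, as were 1595 and 1540 of all 12520 genes. Of their 8 positions listed in all 4 libraries, 0 passed the quasi-binomial model. Of all 2321 positions, in and outside named genes, 2.28% did. Unadjusted, 1 of the 8 and 217 of all 2321 were under 0.05. Fisher's exact test on the summed reads passed 4 of the 8, and 22.9% of all positions.

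Of the 181 positions of these other genes that both untreated libraries listed, 39 (21.5%) were listed with dTAG13. Over all genes outside the 10, the share was 20.0% of 25031 positions. Levels of at least 90% in both were found at 10 positions in 9 genes, and 2 of them were listed in a dTAG13 library. Smg8, of nonsense-mediated decay, stood at 93.5% of 169 and 100% of 141 reads at chr11:86976884. The helicase gene Upf1 stood at 100% of 17 and 100% of 190 reads at chr8:70805594, and Dcp1a, of the decapping complex, at 100% of 24 and 96.6% of 147 reads at chr14:30245744. None of these 3 was listed with dTAG13.

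In most of the 10 genes, most listed positions lay near the 3′-most listed one. Distances are genomic and include any introns, and they were not set against where the reads or adenosines of a gene lay. Within 5 kb of the 3′-most listed position lay 76.3% of the Ddx6 positions, 81.3% of the Xrn1 positions, 78.9% for Pan3, 74.3% for Cnot6, 67.0% for Dcp2, 62.3% for Edc4, 57.4% for Lsm14a and 53.6% for Cnot7. The Tob1 positions all fell there, as they must, since their span of 3890 bases is shorter than the window. The Edc4 positions spanned only 12098 bases. Cnot1 was different: 3.96% of its 328 positions lay in that window, and all 328 together spanned 87694 bases.

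The pattern of Ddx6 chr9:44548145 was compared with that of 1189 tested positions in named genes outside the 10, by the Euclidean distance over the 4 levels. The nearest was Knstrn chr2:118665014, with 73.4% and 72.6% untreated and 11.01% and 10.58% treated, at a distance of 8.41 points. Mtmr4 chr11:87505633 followed at 15.9 points, with 65.5% and 69.9% against 14.7% and 13.8%. Next came Ipo5 chr14:121184379 at 17.5 points, with 90.8% and 84.8% against 17.0% and 18.4%.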

How the data were processed

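Each library had its own table from the authors, in which the deposited counts of A reads and of A plus G reads per position, the level as a fraction, the p-value of the position, and the coverage (signal) and conversion rate (fraction) of its gene stand side by side, per the file headers. The aligner and site caller are not given in the sources used here; the labels put all 4 samples in 1 batch. Groups follow the sample titles. The 10 genes, the lists and the tests were chosen with earlier results of these data known. Positions named are those listed in all 4 libraries, those at 40% or more on average in both libraries of a group, the best supported one of any gene without these, and, chosen after their values were seen, those listed in 3 libraries. Models were fitted over all positions or genes and adjusted by Benjamini-Hochberg in R 4.3.3: a quasi-binomial model with dispersions moderated by limma 3.58.1, limma on log2 coverage and on the log2 odds of the unconverted share, and edgeR 4.0.16 on listed positions per gene (at least 10 over the libraries, equal library sizes), with DESeq2 1.42.0 as an alternative. Scripts were tested on simulated data. Wilson intervals (95%) cover counting error only. No sequence is shown, since no genome of the tables' build was used here.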

Additional observations from a re-analysis of the deposited data

How the results depend on the processing

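With 2 libraries a group and positions listed only above fixed limits, single genes can be resolved poorly, and an unlisted position has no level. Of the 4 tested positions, 1 passed in the report's model, and 4 with Fisher's exact test on summed reads, which ignores the spread between replicates and passed 22.9% of all positions. Leaving out 1 library, between 4 and 9 of the genes' positions were tested and 0 passed (range 0 to 0), as over all positions. The summed level passed in 2 genes with Fisher's exact test, as did 42.1% of all genes. Same-numbered libraries did not deviate together gene by gene (correlations 0.0023 for coverage, 0.0083 for the unconverted share and 0.0047 for listed positions). Whether they shared a culture or a preparation cannot be told from these values. With the replicate number as a block in the quasi-binomial model, 0 positions passed, as over all positions. Ddx6 chr9:44548145 had an adjusted p of 0.117 in that model. Divided by library totals, the ratio of listed positions was 1.001. Leaving out 1 library gave ratios from 0.684 to 0.714.

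Log2 changes in listed positions per gene changed sign under library totals, TMM factors and DESeq2, in that order, to 0.015, 0.035 and 0.037 for Cnot1, 0.090, 0.11 and 0.11 for Cnot6, 0.18, 0.20 and 0.21 for Cnot7, 0.10, 0.12 and 0.12 for Ddx6, and 0.34, 0.36 and 0.37 for Lsm14a; for Dcp2 they were 0.00094 with TMM factors and 0.0062 with DESeq2. Median centring of the unconverted share gave 0.020 for Ddx6, 0.0088 for Edc4 and 0.11 for Xrn1. Leaving out 1 library gave coverage changes from -0.20 to 0.055 for Dcp2, -0.42 to 0.020 for Edc4, -0.32 to 0.31 for Pan3 and -0.023 to 0.26 for Xrn1, and unconverted share changes from -0.073 to 0.18 for Cnot1 and -0.70 to 0.048 for Cnot6. The causes of these changes of sign were not tested.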

Other observations

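Listed positions of the decay genes often stood close together. In the 4 libraries, 31.6 to 34.9% of them had another listed position of the same library within 10 bases, against 28.9 to 32.1% in all other genes. Ddx6 had the highest percentage of the 10 genes (38.2%) and Edc4 the lowest (23.2%). In 17 pairs within 10 bases, spread over 7 genes, both positions had the same number of A reads and the same total. Cnot1 chr8:96446377 and chr8:96446380 had 42 A reads of 42 each in the first untreated library. Dcp2 chr18:44556103 and chr18:44556104 had 44 of 78 each there, the second of these being a position of high untreated level named in the report, and Ddx6 chr9:44542681 and chr9:44542684 had 18 of 23 each. Such neighbours can be read from the same fragments and are not independent measurements; the reads themselves were not analysed here.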
